A study of Homo sapiens with 42 samples.

Results

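SUZ12 is a core subunit of Polycomb repressive complex 2 (PRC2), and its peaks in NCI-H661 are the subject here. NCI-H661 is a large cell lung carcinoma line that expresses the embryonic proteins DPPA2 and DPPA4, and the cells profiled were parental and untreated. The peaks were all narrow peaks that MACS2 called in the 1 SUZ12 ChIP-seq library on chromosomes 1 to 22, X and Y, 34512 of the 34638 in the deposited list. The members were thus chosen by the SUZ12 signal itself, so their fold and q are given as a description. They were then divided by H2AK119ub, as broad islands called in 2 NCI-H661 replicates at a log2 fold above 1 over input, into 12143 peaks with H2AK119ub in both replicates, 11298 with it in 1 and 11071 with it in neither. The series held 42 samples, and the other readouts used at these peaks were H3K27ac, H3K9me3, H3K4me1, H3K36me2 and H3K36me3 (2 NCI-H661 libraries each), DPPA2 and DPPA4 (2 each) and KDM2A (1). H2AK119ub and H3K27ac were also read in NCI-H1299_DOVE, a non-small cell lung cancer line that carries inducible FLAG-DPPA2 and V5-DPPA4, after 7 days with 2 µg/mL doxycycline (DOX) or with water (control), 2 replicates each. Both arms carry the transgenes, so doxycycline itself and the induced proteins cannot be told apart. H3K9me3 of that line was read in the 2 control libraries only. The study asked with SUZ12 and with MTF2, another PRC2 member, whether PRC2 reaches promoters that carry H2AK119ub together with active marks. It reported MTF2 binding at such domains. For SUZ12 it proposed that low enrichment could have kept most of these regions below the peak threshold. MTF2 was not read here.

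PRC2 places methyl groups on lysine 27 of histone H3, and SUZ12 holds the complex together. Polycomb repressive complex 1 (PRC1) places ubiquitin on histone H2A, giving H2AK119ub, and each complex can help to recruit the other. Both are best known at CpG-island promoters of silent developmental regulators such as HOX and other homeobox genes. H3K27ac occupies the same lysine that PRC2 methylates and marks active promoters and enhancers, whereas H3K9me3 marks constitutive heterochromatin. H3K27me3, the product of PRC2, was not analysed here.

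SUZ12 has no second library, so its peak calls have no replicate check, and every division of the peaks is a description without a test. Nothing in the labels says that replicates of the other marks came from separate cultures, so their spread may be technical. The 32 histone libraries had 137991 to 6649708 reads in the islands kept, and the 2 NCI-H661 H2AK119ub libraries had 1318183 and 6649708. The second H2AK119ub library covered 4.74% of the genome and the first 1.65%, so that values are given for each. SUZ12, DPPA2, DPPA4 and KDM2A were fixed with a double crosslink and the histone marks with a single one.

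To show what the strongest peaks look like, the 200 bp around the summit are given for the peak of highest fold in several classes, from the plus strand of hg38, with every CpG in capitals. A fold here is the ratio of SUZ12 signal at the summit to the local input. Windows with an annotated UTR and windows of 1 chromosome were passed over, and no window is shown for peaks with H2AK119ub and without H3K27ac. The strongest peak with H2AK119ub and H3K27ac in both replicates was intergenic, 2.79 Mb from the nearest protein-coding start (chr2:91477999-91478198, fold 52.1, 30 CpGs). Another peak of the same pericentromeric stretch was the strongest with H3K9me3 in both replicates (chr2:91442657-91442856, fold 33.8, 23 CpGs). Near-identical copies are common there, so its reads may belong elsewhere.
chr2 peak with H3K27ac: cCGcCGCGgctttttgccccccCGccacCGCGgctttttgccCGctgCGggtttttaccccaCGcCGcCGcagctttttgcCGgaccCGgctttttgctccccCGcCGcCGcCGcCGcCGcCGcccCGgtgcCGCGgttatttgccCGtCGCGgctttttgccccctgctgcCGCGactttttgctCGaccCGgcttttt
chr2 peak with H3K9me3: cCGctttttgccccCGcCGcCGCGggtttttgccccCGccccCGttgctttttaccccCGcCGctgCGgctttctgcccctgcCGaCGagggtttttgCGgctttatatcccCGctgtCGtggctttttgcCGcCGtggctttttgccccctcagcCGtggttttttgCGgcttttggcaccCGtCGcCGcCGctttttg
One peak was at once the strongest with H2AK119ub in neither replicate and the strongest on a DPPA2/4 consensus peak, 1213 bp downstream of the start of BMI1, which encodes a PRC1 subunit (chr10:22322212-22322411, fold 58.9, 8 CpGs, 58.5% GC).
BMI1: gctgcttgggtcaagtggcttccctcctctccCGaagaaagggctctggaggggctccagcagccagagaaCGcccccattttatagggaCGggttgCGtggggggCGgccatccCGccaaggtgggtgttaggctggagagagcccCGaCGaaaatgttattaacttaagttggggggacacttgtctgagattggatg
Because of the mapping doubt on chromosome 2, the strongest peaks of the same 2 classes at protein-coding promoters are added, chosen after values were seen. With H3K27ac this was at GP1BB, a platelet glycoprotein gene (chr22:19726154-19726353, fold 31.5, 26 CpGs). The GP1BB window is itself a run of near-identical short repeats, so where its reads come from is also uncertain.
GP1BB: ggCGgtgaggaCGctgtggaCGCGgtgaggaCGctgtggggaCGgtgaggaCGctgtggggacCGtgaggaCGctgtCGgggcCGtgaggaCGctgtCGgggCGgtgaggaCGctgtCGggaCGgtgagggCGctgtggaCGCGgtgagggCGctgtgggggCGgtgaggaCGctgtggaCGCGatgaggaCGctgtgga
With H3K9me3 the strongest such peak was at IRX4, an Iroquois homeobox gene (chr5:1875228-1875427, fold 29.6, 9 CpGs), with a width of 15643 bp.
IRX4: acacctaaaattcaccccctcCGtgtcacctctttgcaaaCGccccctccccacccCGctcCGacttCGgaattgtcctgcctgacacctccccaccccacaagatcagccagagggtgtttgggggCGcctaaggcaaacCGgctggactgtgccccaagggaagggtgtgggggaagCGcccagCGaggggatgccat

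The windows differed in base content with the strength of the peak. Over all peaks the summit window held a median of 4 CpGs and 51.0% GC, and at the 3529 peaks of fold 7.06 and over, the strongest 10%, it held 15 CpGs. Windows at all 20033 protein-coding starts held 18 CpGs. Short strings of letters were searched on both strands of these windows. GGGCGG was found in 41.7% of the windows of the strongest 10%, 10.5% of the other SUZ12 windows and 53.5% of all start windows. GCGCGC was found in 18.0%, 2.87% and 22.6% of them. GAGAGA differed little, at 13.8%, 16.9% and 14.7%. CCGGAAG was in 2.30% of the strongest, 1.10% of the other peaks and 11.2% of all starts, so the strongest SUZ12 peaks held it less often than starts in general did. A match is only a match of letters in the window.

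The peaks formed a large group of narrow, weak calls and a small group of strong, wide ones. The fold ranged from 2.04 to 58.9 with a median of 4.58, and the lowest −log10 q in the list was 1.304, so no peak just outside the threshold is listed. Fold values repeat, and 64.3% of peaks shared their fold with at least 100 others, so ranks by fold are rough. The median width was 262 bp, 76.6% were under 500 bp, and 164 were over 5000 bp. The peaks covered 18.0 Mb, or 0.583% of the chromosomes used. Of all peaks, 40.4% lay in introns, 33.9% between genes, 13.98% at protein-coding promoters (1500 bp on either side of the start), 7.08% at promoters of other transcripts and 4.68% in exons. The median distance to the nearest protein-coding start was 58.9 kb, and 37.2% of peaks lay more than 100 kb away.

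The strongest 10% stood apart from the rest. Among the 3452 highest peaks by rank (fold of 7.06 and over), 59.4% had the summit in a CpG island, 48.5% lay at a coding promoter and 75.3% had H2AK119ub in both replicates, with a median width of 1742 bp. In the next 10%, at folds of 5.82 to 7.06, the same shares were 14.8%, 15.5% and 43.03%, with a median width of 483 bp. In the weakest 10% they were 7.07%, 10.7% and 31.8%. H3K9me3 differed much less across the range, from 9.48% to 16.1%. Each H2AK119ub library gave the same picture on its own, with 38.3% of the weakest and 77.1% of the strongest 10% in the first library and 58.7% and 87.8% in the second.

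**Figure D1:**
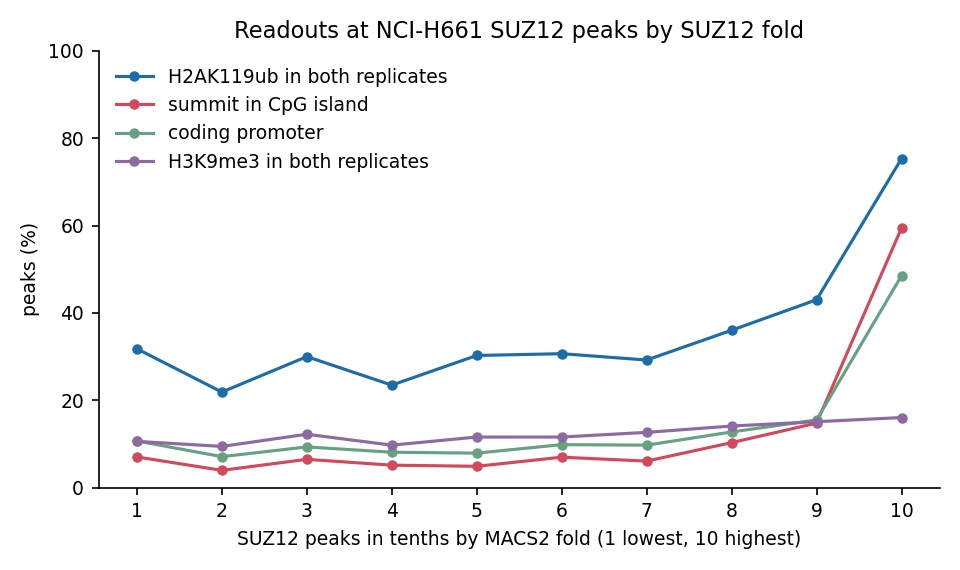
Shares of SUZ12 peaks (y axis, percent) with H2AK119ub in both replicates, with the summit in a CpG island, at a coding promoter or with H3K9me3 in both replicates, in 10 bins of equal size by fold (x axis). CpG islands, promoters and H2AK119ub rise steeply in the highest bin, to 59.4%, 48.5% and 75.3%, while H3K9me3 stays between 9.48% and 16.1%.

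The peaks were crowded. The median gap to the next peak was 1420 bp, and the 100 densest of 2128 bins of 1 Mb held 38.3% of all peaks. Several of the densest lay near chromosome ends, with 331 peaks in the bin from 49 Mb of chromosome 22, 314 from 86 Mb of chromosome 16 around FOXF1, and 266 from 157 Mb of chromosome 7. Chromosome 19 held 22.1 peaks per Mb, chromosome 7 held 19.4, chromosome 20 held 19.1 and chromosome 9 held 4.27. Broad SUZ12 islands called by EPIC2 in the same library enclosed these runs. The fullest was 73.8 kb wide on chromosome 19 (chr19:29262901-29336700), 86.6 kb from the start of UQCRFS1, and held 39 narrow peaks at a log2 fold of 1.88. Its input density was 14.7 reads per kb, against a median of 7.0 over all SUZ12 islands, and input density in the next 9 was 8.42 to 19.3. The part of input density in these runs was not tested. Without the peaks of the 100 densest bins, 32.3% of the rest had H2AK119ub in both replicates, against 35.2% of all peaks.

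A set of peaks could not be read for histone marks at all. EPIC2 called no island in the pseudoautosomal regions of X and Y in any of its 38 lists, while MACS2 called 608 SUZ12 peaks there. In all, 2554 peaks (7.40%) lay outside every SUZ12 island of their own library. Of these 92.1% fell in the class with H2AK119ub in neither replicate, and only 12.7% touched an island of any of the 32 histone libraries, against 80.9% of the peaks inside SUZ12 islands. Their median fold was 4.58, the same as inside. Among the 31958 peaks inside SUZ12 islands, 37.8% had H2AK119ub in both replicates and 27.3% in neither, in place of 35.2% and 32.1%.

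H2AK119ub lay at far more SUZ12 summits than its share of the genome. Of all peaks, 40.4% overlapped an island of the first replicate, 62.7% of the second and 35.2% of both. By the summit alone, 27.4% fell in islands of both replicates, which cover 1.07% of the genome. The same pair of values was 7.997% and 0.996% for H3K9me3, 2.50% and 1.35% for H3K4me1, 1.97% and 1.40% for H3K27ac, 0.0319% and 0.736% for H3K36me2, and 0.0203% and 2.07% for H3K36me3. H3K36me2 and H3K36me3 mark broad active domains and gene bodies, and the share of summits in them was below the share of the genome they cover.

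The 3 classes by H2AK119ub differed in base content and place. Peaks with the mark in both replicates had a median fold of 5.00, a width of 398 bp, 55.5% GC, 23.2% of summits in CpG islands and 23.3% at coding promoters. Those with it in 1 replicate had 4.58, 244 bp, 51.0%, 7.99% and 10.2%. Those with it in neither had 4.47, 219 bp, 46.0%, 5.55% and 7.54%. Width alone makes an overlap likelier, and among peaks under 500 bp the share with H2AK119ub in both was 26.5%, against 63.7% of wider ones. By chromosome the share was 62.6% on chromosome 20, the highest, 8.55% on X and 0.0% on Y. Of the 936 peaks on X, 242 lay in the first 1 Mb, as did 222 of the 307 on Y. Those stretches are pseudoautosomal, where no island was called.

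H3K27ac was rare at SUZ12 peaks. It was found in both replicates at 866 of 34512 peaks (2.51%), and at 4.65%, 1.59% and 1.09% of those with H2AK119ub in both, 1 and neither. In the first H3K27ac library these shares were 5.16%, 1.82% and 1.29%, and in the second 11.2%, 3.35% and 2.204%. The order was the same in both libraries. For calls in both H3K27ac replicates, the gap between peaks with H2AK119ub in both and all others was 3.31 percentage points. By single library the shares were 5.16% against 1.56% and 11.2% against 2.78%. The gap thus differed in size between the 2 libraries (SD 3.38). Most H3K27ac was at promoters, since 77.4% of the peaks that had it lay at coding promoters and 87.3% in CpG islands. At CpG-island promoters that order was not kept, with H3K27ac in both replicates at 20.7% of 1928 peaks with H2AK119ub in both, 23.99% of 521 with it in 1 and 27.3% of 271 with it in neither. In the first library these were 22.04%, 25.7% and 29.9%, and in the second 41.8%, 39.2% and 49.8%. The class with H2AK119ub in neither was highest in both libraries, while the order of the other classes differed between them.

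H3K9me3 was the commonest of the other marks. It was found in both replicates at 4259 peaks (12.3%), and at 20.3%, 13.2% and 2.80% of those with H2AK119ub in both, 1 and neither. In the first H3K9me3 library the shares were 28.5%, 20.2% and 7.03%, and in the second 34.2%, 28.3% and 8.83%. The gap between peaks with H2AK119ub in both and the others was 12.2 percentage points, larger than the spread between the gaps of the single libraries (SD 0.520). It was seen among peaks under 500 bp, at 19.3% and 7.55%, and inside SUZ12 islands, at 20.3% with H2AK119ub in both and 3.29% with it in neither. The peaks with H3K9me3 lay a median of 115 kb from a coding start, and 9.37% were at coding promoters. They were most frequent on chromosome 19 (34.6% of its SUZ12 peaks), chromosome 5 (25.5%), chromosome 22 (23.8%), chromosome 20 (23.2%) and chromosome 7 (19.3%). Median input density in SUZ12 islands there was, in that order, 8.0, 7.65, 6.36, 8.89 and 7.65 reads per kb. Over all SUZ12 islands it was 7.0, and on chromosome 6, with H3K9me3 at 10.3%, it was 7.65. The part of input density in this pattern was not tested. Outside those 5 chromosomes the shares were 13.8% of peaks with H2AK119ub in both and 6.28% of the others. Of the peaks with H3K9me3 in both NCI-H661 replicates, 0.798% and 3.69% had an H3K9me3 island in the 2 NCI-H1299 control libraries. Those libraries had 137991 and 290902 reads in kept islands, which covered only 6720000 and 23141200 bp. A site without an island there was not called at this depth. H3K4me1, the mark of enhancers and promoter flanks, was in both replicates at 12.2%, 1.10% and 0.181% of the 3 classes.

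**Figure D2:**
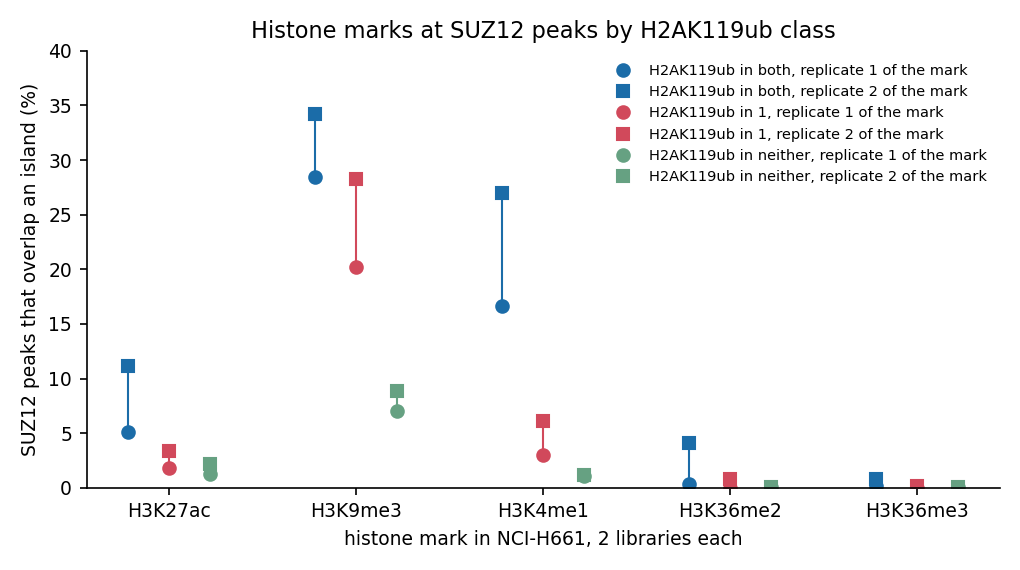
Share of SUZ12 peaks that overlap an island of each mark (y axis, percent) in each of the 2 NCI-H661 libraries of that mark (circle and square, joined by a line), by whether H2AK119ub was found in both, 1 or neither replicate. In every library of H3K27ac, H3K9me3 and H3K4me1 the peaks with H2AK119ub in both stand highest, and H3K36me2 and H3K36me3 reach at most 4.09%.

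DPPA2 and DPPA4, which bind chromatin in early embryonic cells, were found at a small share of SUZ12 peaks. The share of the genome under their own peaks is not given here, so enrichment or depletion cannot be read from these values. A consensus peak of all 4 libraries overlapped 1339 SUZ12 peaks (3.88%), and 7.68%, 2.08% and 1.54% of the 3 H2AK119ub classes. By library, DPPA2 peaks overlapped 22.5% and 11.0% of the SUZ12 peaks with H2AK119ub in both and 5.44% and 2.74% of the others. DPPA4 peaks overlapped 10.8% and 14.2% of the first and 2.59% and 3.18% of the second. At CpG-island promoters the consensus shares were 30.3%, 26.9% and 31.0% by class, so the order across classes was not kept there. Seen from the other side, 12.8% of 8824 consensus peaks touched a SUZ12 peak, 69.6% had H3K27ac in both replicates and 32.9% had H2AK119ub in both. KDM2A, a CpG-island protein that binds unmethylated CpGs, overlapped 0.921% of SUZ12 peaks, and 11.7% of its 3093 peaks touched a SUZ12 peak. KDM2A peaks lay at coding promoters in 71.0% of cases and had H3K27ac in both replicates in 77.4%, where SUZ12 peaks had 13.98% and 2.51%.

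Away from promoters, both H3K9me3 and H3K27ac were more frequent at peaks with H2AK119ub in both replicates, and H3K9me3 was the commoner mark. At peaks outside coding promoters, H3K9me3 was in both replicates at 23.03% of those with H2AK119ub in both and 8.42% of the others, and H3K27ac at 1.38% and 0.334%. The strongest of these peaks were the one on chromosome 2 printed above (52.1), 1 on chromosome 1 at 50.3 kb from PPIAL4F (chr1:144641482-144644262, 48.3), the intron peak on chromosome 8 (45.4), another on chromosome 1 near FAM72C (chr1:144077385-144078837, 42.1) and 1 at 76.5 kb from INSIG1 (chr7:155372133-155382840, 35.0). Both chromosome 1 peaks had H2AK119ub in neither replicate, and PPIAL4F and FAM72C belong to families with near-identical copies, so where their reads come from is uncertain.

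The islands of H2AK119ub themselves divided by SUZ12. Of the first-replicate islands shared with the second, 9895 held a SUZ12 peak and 21901 did not. H3K27ac was in both replicates at 5.54% of the islands with SUZ12 and 20.1% of those without, and H3K9me3 at 22.5% and 14.2%.

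At protein-coding promoters the pattern was sharper. A SUZ12 peak lay at 3132 of 20033 promoters (15.6%), at 19.2% of the 14557 with a CpG island and at 6.17% of the rest. Of 1558 promoters with H2AK119ub in both replicates and H3K27ac in neither, 87.4% had a SUZ12 peak (95% Wilson interval 85.7 to 89.0, which covers counting error only). With H3K27ac in 1 replicate the share was 60.5% of 757. With both marks in both replicates it was 21.2% of 2548 (19.7 to 22.9), and with H3K27ac but not H2AK119ub in both it was 1.87% of 9084 (1.61 to 2.17). Among the promoters with both marks, those on a DPPA2/4 consensus peak had SUZ12 in 21.3% of 1703 and those off it in 21.2% of 845. The broad SUZ12 islands gave the same order with higher values, 94.4%, 69.2%, 36.5% and 7.86%, and added 420 promoters with both marks that held no narrow peak.

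**Figure D3:**
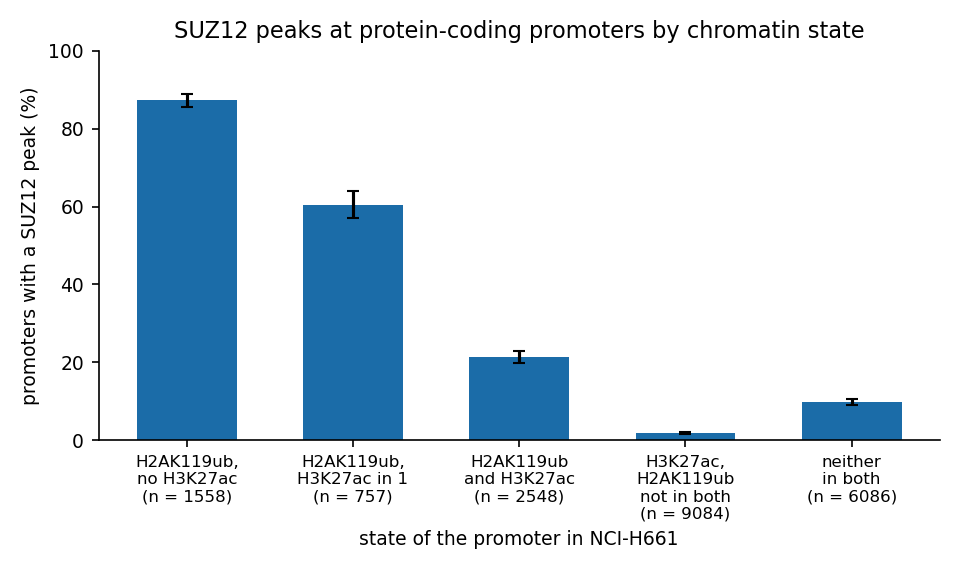
Share of protein-coding promoters with a SUZ12 peak (y axis, percent) by H2AK119ub in both NCI-H661 replicates and by how many replicates had H3K27ac (x axis, with the number of promoters). Bars are shares and error bars 95% Wilson intervals of counting error, and the share falls from 87.4% without H3K27ac to 21.2% with it in both replicates.

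The promoters with the highest folds belonged mainly to developmental transcription factors. Among the highest after BMI1 (fold 58.9) were AMER2 (33.8, an adaptor of the Wnt pathway), NKX1-1 (32.3), GP1BB (31.5), FAM181B (30.6), FOXF1 (30.3), SP5 (30.1), NKX6-2 (30.0), RNF223 (30.0), LBX1 (29.9), PLXNA4 (29.9), PGBD5 (29.7), IRX4 (29.6) and NKX2-4 (28.5). NKX1-1, NKX6-2, LBX1, IRX4 and NKX2-4 encode homeodomain proteins, FOXF1 a forkhead factor of lung and gut mesenchyme, and SP5 a zinc finger factor of the Wnt pathway. All of those named but BMI1 had H2AK119ub in both replicates. A wide peak counts for a promoter that it touches, so summits can lie outside it, as at GP1BB (2715 bp downstream of the start), IRX4 (7597 bp downstream) and RNF223 (−4545 bp). The widest peak of the list, 24156 bp, was the one over FOXF1, with its summit at −13133 bp relative to the start and H2AK119ub at log2 folds of 3.17 and 2.95.

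BMI1 was the exception. Its peak of 2377 bp had no H2AK119ub island in either replicate, H3K27ac islands at log2 folds of 3.67 and 4.50, DPPA2 peaks at folds of 7.59 and 5.58 and DPPA4 peaks at 9.55 and 6.44. The broad SUZ12 call there had a log2 fold of 3.64, so the site was found by both callers. The other promoters without H2AK119ub were weaker, led by FOXD4L1 (17.8), PABPC1L2B (16.5), FOXD4L3 (14.6), FOXD4L5 (14.5) and CTXND1 (13.8). FOXD4L1, FOXD4L3, FOXD4L5 and PABPC1L2B have near-identical copies elsewhere in the genome, so which copy gave the reads is uncertain.

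Promoters with H2AK119ub and H3K27ac in both replicates at the same SUZ12 peak numbered 373, against 1257 with H2AK119ub in both and H3K27ac in neither. Here the marks were read over the whole peak, which can reach past the promoter. Read in the promoter window instead, both marks were at 541 promoters with a SUZ12 peak. Of the 373, the strongest were GP1BB, RNF223, VSTM2B (23.98), RAI14 (20.8), PRDM16 (20.6) and MFSD4A (20.4). The promoter window of GP1BB had H3K27ac in neither replicate, and that of VSTM2B in 1. At RNF223 the H2AK119ub log2 folds were 5.96 and 4.67 and those of H3K27ac 2.99 and 5.23. At PRDM16, a chromatin regulator of brown fat and neural development, they were 4.02 and 2.95 for H2AK119ub and 3.65 and 4.00 for H3K27ac, with DPPA2 at folds of 32.9 and 15.8 and DPPA4 at 14.4 and 11.9. At VSTM2B, H3K9me3 was also found in both replicates. An island spans many nucleosomes, so marks in 1 island can lie on different nucleosomes, alleles or cells.

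H3K9me3 was in both replicates at the SUZ12 peak of 294 promoters. Read in the promoter window instead, it was in both replicates at 367 promoters with a SUZ12 peak. IRX4, VSTM2B, LAMA1 (23.6), PHACTR3 (22.9), CNR1 (22.8) and ADCYAP1R1 (21.5) led the 294. At LAMA1, which encodes a laminin chain of basement membranes, H3K9me3 log2 folds were 3.20 and 5.88 and H2AK119ub log2 folds 2.52 and 1.83. At ADCYAP1R1, a neuropeptide receptor gene, they were 4.31 and 1.78 for H3K9me3 and 3.10 and 2.46 for H2AK119ub. DPPA2/4 consensus peaks met SUZ12 at 758 promoters, with BMI1, NKX1-1, GP1BB, NKX6-2, RNF223 and LBX1 highest. At NKX6-2 DPPA2 had folds of 16.3 and 8.20 and DPPA4 of 9.62 and 11.1.

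Lists of developmental regulators, the textbook targets of PRC2, held SUZ12 at shares above the 15.6% of all promoters. Most members of each list have a CpG-island promoter, and the shares were also above the 19.2% of all such promoters. The SUZ12 signal chose the peaks, so these counts check the label of the library and carry no test. The LIM homeobox genes, which pattern neurons and limbs, had it at 10 of 12 promoters, led by LHX3 (24.5), LHX5 (22.6), LHX1 (20.4) and LHX8. Neurogenic bHLH genes had it at 14 of 18, led by OLIG2 (22.4), NEUROD2 (20.6), OLIG1 (18.6) and NEUROD1 (16.4), and 13 of the 14 peaks had H2AK119ub in both replicates. NKX genes had it at 10 of 14, PAX genes at 6 of 9 with PAX2 (28.1) and PAX7 (25.7) highest, and GATA genes at 4 of 6, namely GATA3 (21.1), GATA6 (20.2), GATA4 (19.3) and GATA5. Forkhead genes had it at 27 of 50, with FOXF2 (25.1), FOXD4 (20.9, another gene with near-identical copies) and FOXQ1 (20.01) after FOXF1. SOX genes had it at 9 of 19, with SOX21 (14.8), SOX7 and SOX17 (12.7) highest, and T-box genes at 9 of 16, with TBR1 (11.6) and TBXT (10.4) highest. Iroquois and ZIC genes had it at 7 of 11, POU genes at 7 of 15 with POU3F1 (28.4) highest, and the DLX family with related homeobox genes at 5 of 12, where DLX1 and DLX2 had none. Of the signalling genes, WNT ligands and frizzled receptors had it at 15 of 29, led by WNT7A (18.4), and BMP and GDF ligands at 11 of 20, led by GDF6 (23.5) and BMP6 (17.4).

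The contrasting lists were nearly free of it. None of 84 cytosolic ribosomal protein genes and none of 30 housekeeping genes, such as ACTB and B2M, had a peak, and broad SUZ12 islands touched 3 and 1 of their promoters. Olfactory receptor genes had a peak at 10 of 415, clustered protocadherins at 2 of 53, and ZNF genes on chromosome 19 at 1 of 246, which was ZNF536 (21.2). Promoter type differs between these lists. A CpG island lay at 4 olfactory receptor, 32 protocadherin, 222 ZNF, 79 ribosomal protein and 30 housekeeping promoters.

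Cell identity lists varied. Over all promoters the share with a SUZ12 peak was 15.6%, and over those with a CpG island it was 19.2%. Pluripotency genes (22.7%), PRC1 genes (21.7%) and the genes that the study singled out (18.2%) were near these shares. Neuroendocrine genes had SUZ12 at 12 of 17, led by INSM1 (21.9), NEUROD1, NCAM1 (13.96) and GRP (13.8). Lung lineage genes had it at 9 of 28, led by GATA6, NKX2-1 (12.6) and SOX9 (10.7), and H3K9me3 was in both replicates at 4 of those 9 peaks. NKX2-1, the master regulator of lung epithelium, carried H2AK119ub at log2 folds of 1.58 and 1.93, H3K27ac at 1.86 and 2.15 and H3K9me3 at 1.98 and 1.19. Pluripotency genes had it at 5 of 22, led by KLF4 (19.5), PRDM14 (16.5) and UTF1 (14.8), while DPPA2, DPPA3 and DPPA4 had none. Genes of the Polycomb complexes were at 1 of 13 for PRC2, which was EPOP (4.47), and 5 of 23 for PRC1, namely BMI1, AUTS2 (10.7), PHC2 (5.51), CBX2 (4.05) and PCGF5 (3.81). CDKN1C (5.12) and CDKN1A (3.67) had weak peaks and CDKN2A and CDKN2B none. Of 11 genes that the study singled out, VGF (4.08) and ITGB8 (3.81) had weak, narrow peaks, and CYP26A1, DLX1, DLX2, DPPA2, DPPA4, FOXP2, LIN28B, NSD2 and SALL4 had none.

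**Figure D4:**
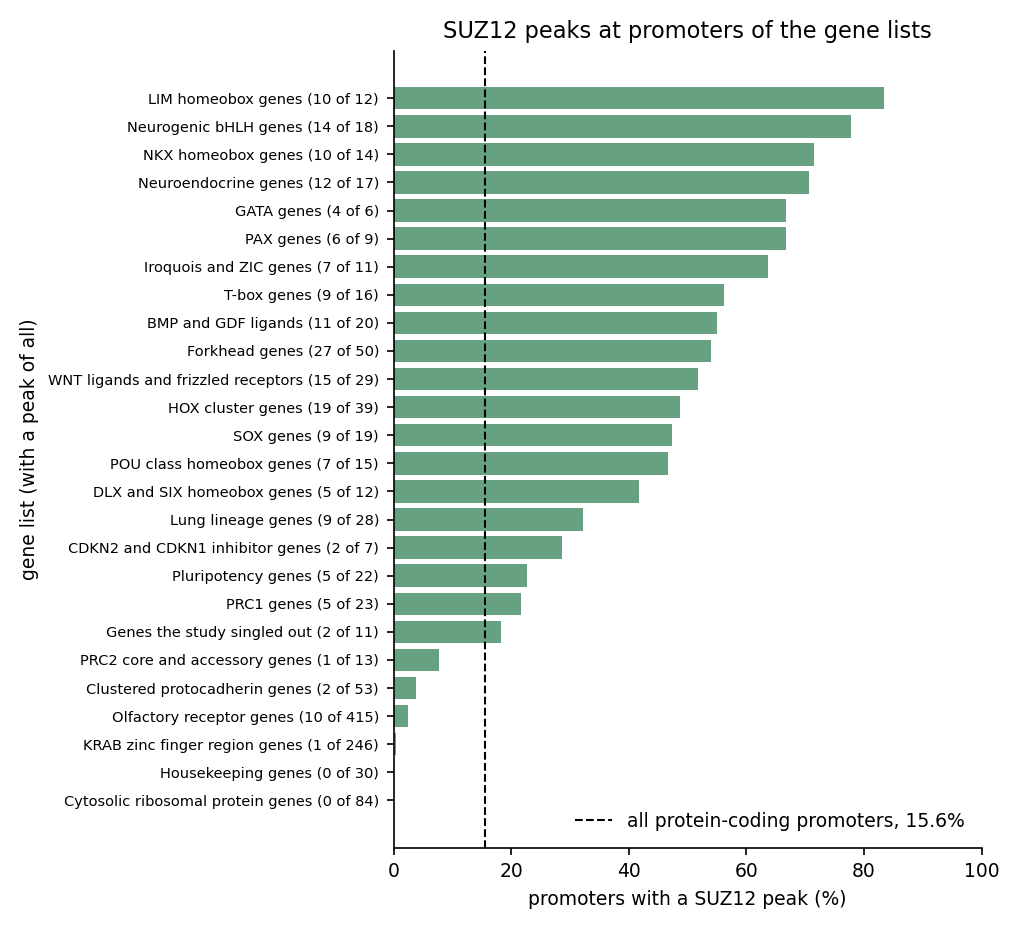
Share of promoters with a SUZ12 peak (x axis, percent) in each gene list, with the number of genes in brackets, and the share of all protein-coding promoters as a dashed line. LIM homeobox genes stand highest with 10 of 12, and housekeeping and cytosolic ribosomal protein genes are at 0.

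The 4 HOX clusters, which set position along the body axis, differed from one another. SUZ12 peaks lay at 8 of 9 HOXD promoters, 7 of 11 HOXA, 4 of 10 HOXB and 0 of 9 HOXC. In HOXD the folds ran from 9.69 at HOXD11 through HOXD12 (10.3), HOXD8 (10.8), HOXD3 (11.6), HOXD10 (12.8), HOXD13 (16.6) and HOXD9 (19.3) to 26.9 at HOXD1, with HOXD4 alone without a peak. In HOXA they ran from 4.57 at HOXA11 to 16.8 at HOXA13, with 14.1 at HOXA2 and 11.7 at HOXA4, and HOXA9 and HOXA10 were among those with none. In HOXB they were 8.99 at HOXB9, 7.81 at HOXB8, 3.84 at HOXB4 and 3.81 at HOXB7, and HOXB1, HOXB2, HOXB3, HOXB5, HOXB6 and HOXB13 had none. HOXC4, HOXC5, HOXC6, HOXC8, HOXC9, HOXC10, HOXC11, HOXC12 and HOXC13 had no narrow peak, and broad SUZ12 islands touched 2 of these promoters. H2AK119ub did not follow that division, being in both replicates at 8 of 9 HOXD, 11 of 11 HOXA, 5 of 10 HOXB and 8 of 9 HOXC promoters. H3K27ac was in both replicates at 3 of 9, 5 of 11, 8 of 10 and 8 of 9 promoters.

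In NCI-H1299_DOVE, few of the NCI-H661 SUZ12 sites carried H2AK119ub. Of the 12143 peaks with H2AK119ub in both NCI-H661 replicates, 6.99% and 10.9% overlapped an island in the 2 control libraries and 3.84% in both. Of those with it in neither, the values were 1.64% and 1.94%, and 0.397% in both. The NCI-H1299 islands are fewer, covering 0.440% and 0.781% of the genome in the control libraries, and cell line and input differ together, so a site without an island was not called at this depth. The H2AK119ub islands of NCI-H661 without SUZ12 were found in the control libraries about as often, at 8.83% and 14.7%, as those with SUZ12, at 9.77% and 14.8%. At promoters with H2AK119ub in both NCI-H661 replicates, 16.0% and 27.4% of the SUZ12 peaks had it in the controls. No NCI-H1299 library had H2AK119ub at the top peak of AMER2, NKX2-4, ADGRA1 (27.5), HOXD1 or PAX7, whereas FOXF1, LBX1, NKX1-1 and RNF223 had it in all 4. 

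DOX and control libraries overlapped at these sites. Over all SUZ12 peaks, 3.72% and 5.75% had H2AK119ub in the control libraries (4.74% ± 1.43, SD, n = 2) and 4.71% and 4.93% in the DOX libraries (4.82% ± 0.156, SD, n = 2). Both DOX values lay between the controls, and the difference was 0.0855 percentage points (exact permutation test over the 4 libraries, two-sided, p = 1.0, where the smallest possible is 0.333). H2AK119ub was found in both DOX and neither control library at 232 peaks (0.672%) and in both control and neither DOX library at 168 (0.487%). FOXF2, PTPRN2, BARHL1, ELOVL2, KCNK12 and NPTX2 were the strongest promoters of the first kind, of 88 in all, and the second kind held 66. These counts carry no test.

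**Figure D5:**
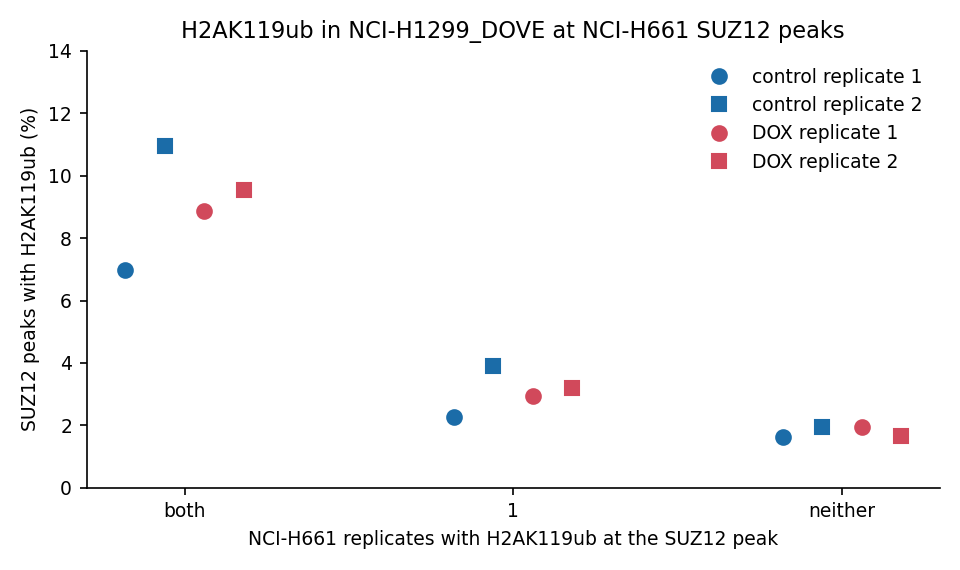
Share of NCI-H661 SUZ12 peaks with an H2AK119ub island in each NCI-H1299_DOVE library (y axis, percent), by the number of NCI-H661 replicates with H2AK119ub at the peak (x axis). Each point is 1 library, the peaks with H2AK119ub in both NCI-H661 replicates stand at 6.99% to 10.9%, and DOX and control points overlap.

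Reads in the called islands of each NCI-H1299 library were also summed over joined H2AK119ub and H3K27ac regions. These sums were compared between DOX and control with edgeR's quasi-likelihood test. Island lengths differ between libraries, so the sums do not cover the same bases. Only regions with islands over at least 50% in every library were tested, so regions with islands in only some libraries were left out. For H2AK119ub 124 regions could be tested, and 0.0% passed the limits of 0.05 on the adjusted p and 0.5 on the size of the log2 change. The 30 that held a SUZ12 peak likewise gave 0 calls, 3 at an unadjusted p below 0.05 against 6 of all 124 (0 by DESeq2 in both), 16 higher and 14 lower with DOX, and a median log2 change of 0.068 against −0.022 over all. The region of lowest p lay on chromosome 7 (chr7:155450001-155452300) with 28 and 34 reads in control and 33 and 63 in DOX, a log2 change of 0.79 (SE 0.296, edgeR adjusted p = 0.501). For H3K27ac 3317 regions were tested under the same coverage minimum and 0.0% called. Of the 108 with a SUZ12 peak 0 were called, 8 had an unadjusted p below 0.05 against 189 of all 3317 (1 and 9 by DESeq2), 62 were higher and 46 lower, and the median was 0.036 against 0.002 over all. The lowest p was at ZFHX3 (chr16:73047301-73059100) with 190 and 260 reads in control and 767 and 356 in DOX, a log2 change of 0.53 (SE 0.17, edgeR adjusted p = 0.456). The first DOX library of H3K27ac was the largest of the 4, with islands over 2.06% of the genome against 0.744% to 0.956% in the others, and SUZ12 peaks with H3K27ac were 5.71% there against 1.95% to 3.03%. Its part in these values was not tested.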

How the data were processed

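ChIP-seq of NCI-H661 and NCI-H1299_DOVE was analysed from the authors' deposited peak lists. Per the submitters' notes, reads were trimmed with Trim Galore 0.6.6, aligned to hg38 with BWA 0.7.13 and handled with SAMtools 1.9 and Picard 2.6.0. The authors called islands with EPIC2 and narrow peaks with MACS2 for each replicate against its matched input. Each deposited island has a ChIP count and an input count of reads, its log2 fold over input, and a p-value corrected to an FDR. The deposited narrow peaks hold a fold (ratio) over background and the −log10 of the q-value. Depth is known only as reads in islands.

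Islands were kept at log2 fold above 1 and FDR below 0.05, the study's limits. Its blacklist was not used. A mark was called at a peak by 1 bp of overlap, and a DPPA2/4 consensus peak needed over 25% overlap in the 4 lists. Promoters were 1500 bp on either side of 20033 canonical protein-coding starts of GENCODE. A CpG island was a 500 bp window of at least 0.55 GC and 0.65 observed to expected CpG. NCI-H1299 islands were joined into regions, tested where islands covered at least 50% in every library, in edgeR 4.0.16 (TMM, replicate block, Benjamini-Hochberg adjustment) in R 4.3.3, with DESeq2 1.42.0 as an alternative. The mouse spike-in could not be applied to lists. The fits were tested on simulated data.

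The peaks, gene lists and tests were chosen with earlier results of these data known. Genes were named as the 15 of highest fold, the 6 highest in each class, up to 4 with and 3 without a peak per list, all HOX genes and the genes the study singled out. The replicate number was kept as a block because the study's methods model complete batches. Some items that this rule names are not reported here.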

Additional observations from a re-analysis of the deposited data

Results flagged for a closer look

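Some signals lay outside the comparisons. The deposited SUZ12 list held 126 peaks on 12 contigs other than chromosomes 1 to 22, X and Y, with a median fold of 4.58 and a highest of 50.7. The broad SUZ12 calls of the same library held 41306 islands with no narrow peak, with a median log2 fold of 1.69 and a median width of 1200 bp, against 2.24 and 2800 bp for the 15820 islands that held one. At 1700 protein-coding promoters there was a broad SUZ12 island and no narrow peak. The cause of these differences between the 2 callers was not tested.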

How the results depend on the processing

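Of 63 recalculated values, 44 counted as unchanged, 16 moved and 3 changed sign. Unchanged meant within the spread of the libraries, or for the share at promoters within its Wilson interval. For the DOX difference it meant the same sign. For the counts of regions called with DOX it was a count of 0 that stayed 0, so those values add little to the tally. The share of SUZ12 peaks with H2AK119ub was 14.2% with islands at log2 fold above 2, and 40.4% to 62.7% when 1 replicate was left out. The share at promoters was 9.65% within 500 bp and 12.98% by the summit. The H3K27ac difference ranged from 1.97 to 8.38 points over fits that left out a replicate, and was 8.38 without H3K27ac replicate 1. The H3K9me3 difference was 7.51 points at log2 fold above 2, 7.07 at promoters only and 10.4 to 15.5 with a replicate left out. The DPPA2/4 difference was 10.6 points at promoters only and 3.49 to 7.098 with a replicate left out, lowest without H2AK119ub replicate 1. The NCI-H1299 control share was 6.99% to 10.9% with a replicate left out, since a call in 1 library then suffices. The DOX difference turned to −0.00435 points by the summit and ranged from −0.927 (without control replicate 1) to 1.10 points, and was −0.0246 without DOX replicate 2. With the replicate block it was 0.0855 points (exact sign-flip test, p = 1.0). The counts of H2AK119ub and H3K27ac regions called were 0 with and without the replicate block. For H2AK119ub, 1546 regions were tested without the coverage minimum and 0 were called. H3K27ac gave 1 called region with a SUZ12 peak without the coverage minimum, higher with DOX like all 3 called of 10335, and 1 without DOX replicate 2, lower like all 29 called of 4507, and 0 to 1 over all fits that left out a replicate. Scaled by covered length, 18 of 108 H3K27ac regions were higher and 90 lower, with a median log2 change of −0.206 against −0.243 over all, so the direction rests on the scaling. Same-numbered NCI-H1299 libraries deviated together at r = 0.105 for H2AK119ub and 0.263 for H3K27ac, with 2 pairs each, so the numbers are not shown to pair the samples. The lowest SUZ12 fold was 2.04, so a limit of log2 fold above 1 left the peaks as they were, and leaving out the densest bins was added after the data were seen.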
